A study of Homo sapiens with 4 samples.

Results

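The genes of homologous recombination and DNA damage repair were followed after silencing of FOXM1 in TE-1, an established cell line from an esophageal squamous cell carcinoma. FOXM1 is a forkhead factor that activates the transcription of cell division genes, and BRCA2, XRCC1 and BRIP1 have been described elsewhere as its targets in other cells. A list of 52 repair genes was searched for in the arrays, and 42 of them had a probe set that carried their symbol alone. A gene with several such probe sets would take the one with the highest mean of the 4 arrays, but each of the 42 genes had 1. In all, 22011 probe sets were measured, of which 14432 carried 1 symbol, naming 14232 genes.
Of the remaining 10 genes, BRCA2, FANCA and FANCD2 were found under no symbol, and RAD50, FANCL, ATM, XRCC1, XRCC5, PMS2 and XPA lay only in probe sets shared with another gene, so they have no value here. WRN, FANCI, CHEK2 and ERCC1 had a value of their own and a second probe set shared with another gene, which was not used.
Cells were transfected with an siRNA against FOXM1 (TE-1-siFOXM1, 2 arrays) or with a scrambled siRNA (TE-1-SCR, 2 arrays), both with Lipofectamine 2000, in 2 rounds a day apart, and were harvested a day after the second round. All arrays come from 1 cell line, and for FOXM1 the methods name 1 siRNA product. Values are log2 expression after robust multi-array average (RMA), in which a difference of 1 is a doubling. The labels number the replicates 1 and 2 in each group, but no source used here states that these were separate cultures, so the spread behind each p-value is that of these arrays and may be technical.
A double-strand break is recognized by the MRE11-RAD50-NBN complex and signalled by the kinases ATM and ATR. It is repaired either by joining of the ends or, once the ends have been resected, by homologous recombination, which copies the sister strand and depends on BRCA1, PALB2 and BRCA2. The Fanconi anemia proteins unlink crosslinked strands and hand the break over to recombination. A part of the repair genes is transcribed with the cell cycle, many of that part under E2F factors in late G1 and S phase.
FOXM1 itself had log2 values of 8.28 and 8.06 in TE-1-siFOXM1 cells, against 10.55 and 9.75 in TE-1-SCR cells, a difference of -1.98 that left 25.3% of the TE-1-SCR level (95% interval -2.75 to -1.21, unadjusted p = 0.00126 and adjusted p = 1 from limma). Of 12 squamous epithelial markers, 7 were measured, and 6 of these lay at or above the median of all values (7.58). CDH1 (11.0), EPCAM (11.7), PERP (11.5) and SFN (12.3) lay far above it, KRT14 (7.94) and DSG3 (8.10) slightly above, and DSC3 (5.73) below. At or above it were also 1 of 7 blood cell markers, 0 of 5 of endothelium and 1 of 6 of fibroblasts. Of the blood cell and fibroblast markers, CD68 (11.2) and COL1A1 (7.78) were those above the median. PTPRC and LUM were the lowest of these lists, with mean log2 values of 3.58 and 3.11. The medians of the arrays lay between 7.54 and 7.63, and pairs of arrays correlated at 0.984 to 0.992 across probe sets.

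To show where these genes carry the sequences of cell cycle transcription, RefSeq promoters of the build GRCh38.p14, each from 250 bases before to 50 after a transcription start, were searched on both strands. The strings were the E2F strings TTTGGCGC, TTTCGCGC and TTTCCCGC, the cell cycle homology region TTTGAA, the CCAAT box and the forkhead core TAAACA, and none of the matches overlapped another. A promoter was found for 45 of the 52 genes. Any of the 3 E2F strings stood in a promoter of 7 genes (15.6% of 45, against 3.30% of the 27305 genes with a promoter). These 7 genes belong to resection, recombination, the Fanconi pathway, the checkpoint, end joining and mismatch repair. Their matches are shown with 12 bases on either side where the window allows, read along the gene, with the match in capitals.
EXO1, chr1:241848196-241848227, plus strand: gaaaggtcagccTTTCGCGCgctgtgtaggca
FANCC, chr9:95317736-95317767, minus strand: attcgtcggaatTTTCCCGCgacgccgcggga
FANCC, chr9:95317862-95317893, minus strand: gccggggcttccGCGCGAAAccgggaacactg
FANCD2, chr3:10026423-10026454, plus strand: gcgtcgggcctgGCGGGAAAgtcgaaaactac
CLSPN, chr1:35769964-35769995, minus strand: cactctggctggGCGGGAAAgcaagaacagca
XRCC2, chr7:152676101-152676132, minus strand: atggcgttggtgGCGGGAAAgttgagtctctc
XRCC6, chr22:41621325-41621344, plus strand: ggtcgcttccctGCGCCAAA
MSH6, chr2:47783136-47783167, plus strand: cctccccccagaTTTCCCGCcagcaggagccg
FANCC, a core subunit of the Fanconi ligase, held 2 matches, and FANCD2 was not measured. CCAAT was found in 26 of the 45 genes (57.8%, against 39.7% of all genes), TTTGAA in 7 (15.6%, against 18.2%) and TAAACA in 3 (6.67%, against 14.7%). The 3 genes with TAAACA were BRIP1, RAD52 and RNF8. The 6 measured genes with an E2F match had a median siFOXM1 minus SCR difference of 0.05, and the 30 measured genes with a promoter and no such match had one of 0.08. A match is a string of letters and not a measured binding site.
The whole windows of RNF168 and BRIP1 are given, RNF168 because it met the fold criterion and BRIP1 because it held both the forkhead core and the cell cycle homology region. Capitals mark, from the left of the BRIP1 window, TTTGAA on the opposite strand, TAAACA and 3 CCAAT boxes on the opposite strand.
RNF168 promoter, chr3:196503719-196504018, minus strand: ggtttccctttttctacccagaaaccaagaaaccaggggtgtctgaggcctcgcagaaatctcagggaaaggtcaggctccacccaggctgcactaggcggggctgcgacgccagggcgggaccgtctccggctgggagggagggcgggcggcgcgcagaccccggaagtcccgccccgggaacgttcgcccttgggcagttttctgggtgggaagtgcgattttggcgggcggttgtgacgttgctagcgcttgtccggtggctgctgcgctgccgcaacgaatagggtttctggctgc
BRIP1 promoter, chr17:61863479-61863778, minus strand: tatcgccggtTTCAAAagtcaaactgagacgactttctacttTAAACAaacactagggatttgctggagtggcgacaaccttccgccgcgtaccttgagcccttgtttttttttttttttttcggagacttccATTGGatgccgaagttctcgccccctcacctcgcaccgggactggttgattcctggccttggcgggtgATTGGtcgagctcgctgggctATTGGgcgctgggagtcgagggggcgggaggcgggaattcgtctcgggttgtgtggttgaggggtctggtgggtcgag
The RNF168 window held none of the searched strings, which says only that these letters are not in it.

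Of the 42 repair genes, RNF168 was the only one at least 1.5-fold apart between the groups, which is the criterion of the study, and it was lower in TE-1-siFOXM1 cells. Of all genes, 0.45% were at least 1.5-fold lower and 0.562% at least 1.5-fold higher. None of the 42 genes passed an adjusted p of 0.05 in limma (0.0% of all genes passed), and 1 had an unadjusted p under 0.05 (1.83% of all genes). In bulk RNA, fewer cells that transcribe a gene and less RNA per cell cannot be told apart.
The median difference of the 42 genes was 0.07 (all genes 0.00, genes at or above the median level 0.01), with 33 differences above 0 and 9 below. Its sign depended on the arrays, as it was -0.06 when siFOXM1 replicate 1 was left out and -0.01 when SCR replicate 2 was, against 0.16 and 0.17 when SCR replicate 1 or siFOXM1 replicate 2 was. For 5 genes both silenced arrays were below both control arrays (RNF168, PARP1, NBN, ERCC4 and MSH6), where 13.8% of all genes did so. For 6 genes they were above both (FANCB, BLM, RAD52, CHEK1, FANCI and EXO1), where 13.5% of all genes did so, and the groups overlapped for the other 31. The second count depended on the scaling, as it was 10 after centring (23.8%, against 14.1% of all genes) and 13 after quantile normalization (31.0%, against 15.3%), while the first remained 5 in number (11.9%, against 16.1% and 16.2%). The differences of the 5 genes on the low side lay between -0.59 and -0.25, and the next, that of RNF8, was -0.06. Their share (11.9%) was not above that of all genes (13.8%), and of their intervals only that of RNF168 leaves out 0.

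**Figure D1:**
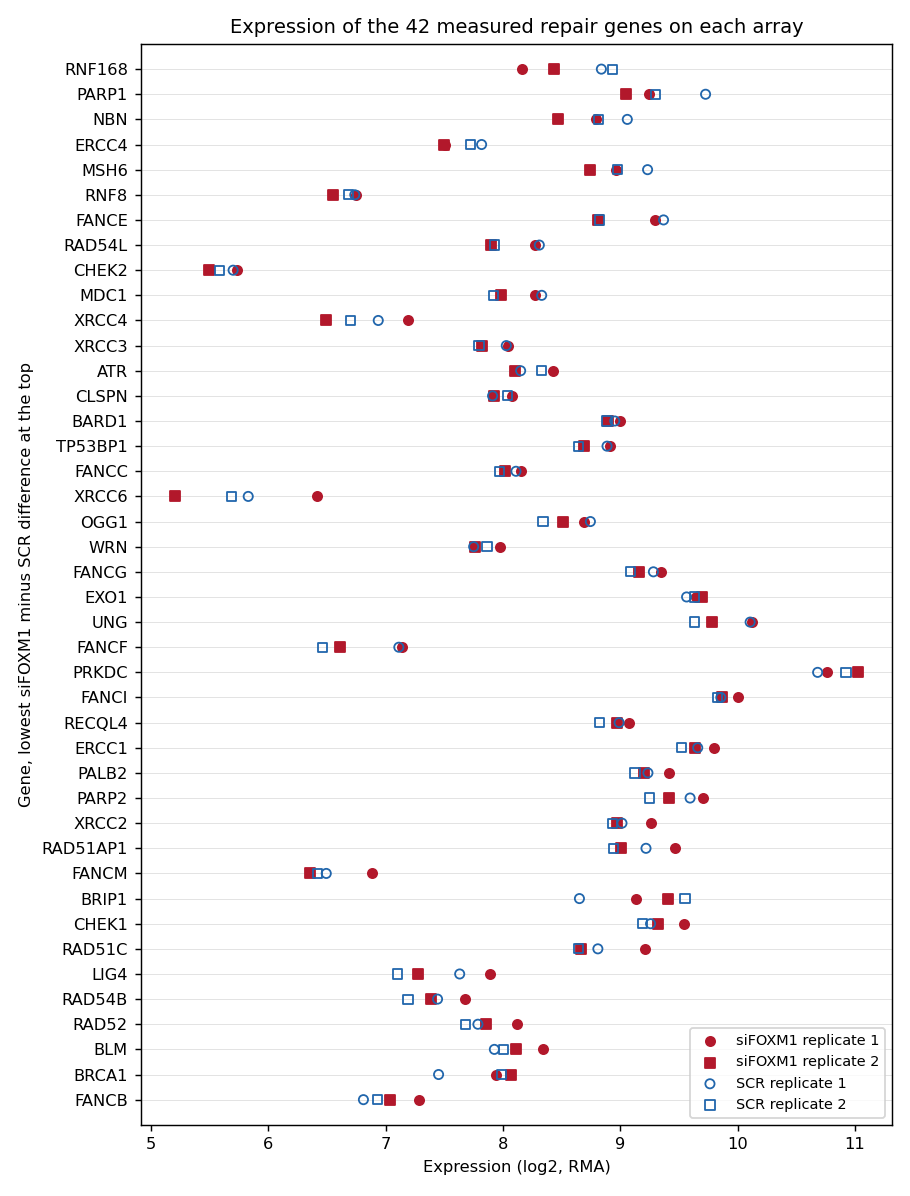
Log2 expression (RMA, x axis) of the 42 repair genes (y axis, lowest siFOXM1 minus SCR difference at the top) on each of the 4 arrays; filled red symbols are TE-1-siFOXM1, open blue symbols TE-1-SCR, circles replicate 1 and squares replicate 2. Only the 5 uppermost genes have both red symbols to the left of both blue ones, and in many rows the circles lie to the right of the squares.

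In the signalling of breaks through chromatin, MDC1 binds the phosphorylated histone at the break, the ubiquitin ligases RNF8 and RNF168 mark the chromatin around it, and TP53BP1 reads the mark and restrains resection. RNF168 had log2 values of 8.16 and 8.44 in TE-1-siFOXM1 cells, against 8.84 and 8.93 in TE-1-SCR cells. Both values of the silenced cells were below both control values, and the gap between the groups was wider than the distance between replicates in either. The difference was -0.59 (1.5-fold, standard error 0.16, 95% interval -1.0 to -0.17), with an unadjusted p of 0.0156 and an adjusted p of 1 from limma. An exact permutation test of 2 arrays against 2 cannot give a two-sided p below 0.333. The difference lies on the criterion itself, as it was -0.45 without siFOXM1 replicate 1, -0.54 without SCR replicate 2 and -0.58 with the fold taken from linear means, each under 1.5-fold.
The other 3 genes of this step were closer between the groups. RNF8, the ligase that acts before RNF168, had 6.75 and 6.55 in TE-1-siFOXM1 cells and 6.74 and 6.69 in TE-1-SCR cells, a difference of -0.06 (95% interval -0.44 to 0.32). TP53BP1 had 8.91 and 8.69 in TE-1-siFOXM1 cells and 8.89 and 8.64 in TE-1-SCR cells, a difference of 0.03 (-0.40 to 0.47). MDC1 had a difference of 0.00 (-0.53 to 0.54). For all 3 the groups overlapped, and the intervals exclude a 1.5-fold decrease or increase.

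Of the 11 listed core genes of homologous recombination, 10 were measured and none was 1.5-fold apart or had an unadjusted p under 0.05 in limma. They had differences from -0.04 (RAD54L) to 0.28 (BRCA1) and a median of 0.15, which was -0.01 without siFOXM1 replicate 1 and 0.26 without siFOXM1 replicate 2. BRCA1, the ubiquitin ligase that promotes resection and recruits PALB2, had 7.94 and 8.07 in TE-1-siFOXM1 cells and 7.45 and 7.99 in TE-1-SCR cells. The first control array was low and the other lay between the silenced ones, so the groups overlapped, and the difference of 0.28 (95% interval -0.29 to 0.86) became 0.01 without SCR replicate 1. BARD1, its partner in the ligase, had a difference of 0.03 (-0.33 to 0.39), and PALB2, the bridge to BRCA2, one of 0.13 (-0.26 to 0.52).
RAD52, which anneals single strands, was the core gene whose groups did not overlap. It had 8.12 and 7.85 in TE-1-siFOXM1 cells, against 7.79 and 7.68 in TE-1-SCR cells, a difference of 0.25 (95% interval -0.17 to 0.66). The RAD54 motor proteins, which move along duplex DNA during strand exchange, took different places. RAD54B had 7.68 and 7.39 in TE-1-siFOXM1 cells and 7.44 and 7.19 in TE-1-SCR cells, a difference of 0.22 (-0.25 to 0.68). RAD54L had 8.27 and 7.89 in TE-1-siFOXM1 cells and 8.31 and 7.93 in TE-1-SCR cells, a difference of -0.04 (-0.60 to 0.53).
RAD51C, XRCC2 and XRCC3 belong to complexes that assist strand exchange, and RAD51AP1 stimulates the pairing of DNA. RAD51C had 9.21 and 8.66 in TE-1-siFOXM1 cells and 8.81 and 8.64 in TE-1-SCR cells, with a difference of 0.21 (95% interval -0.38 to 0.80) carried by siFOXM1 replicate 1, since it was -0.06 without that array. XRCC2, XRCC3 and RAD51AP1 had differences of 0.14, 0.02 and 0.16, each with an interval that spans 0.

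**Figure D2:**
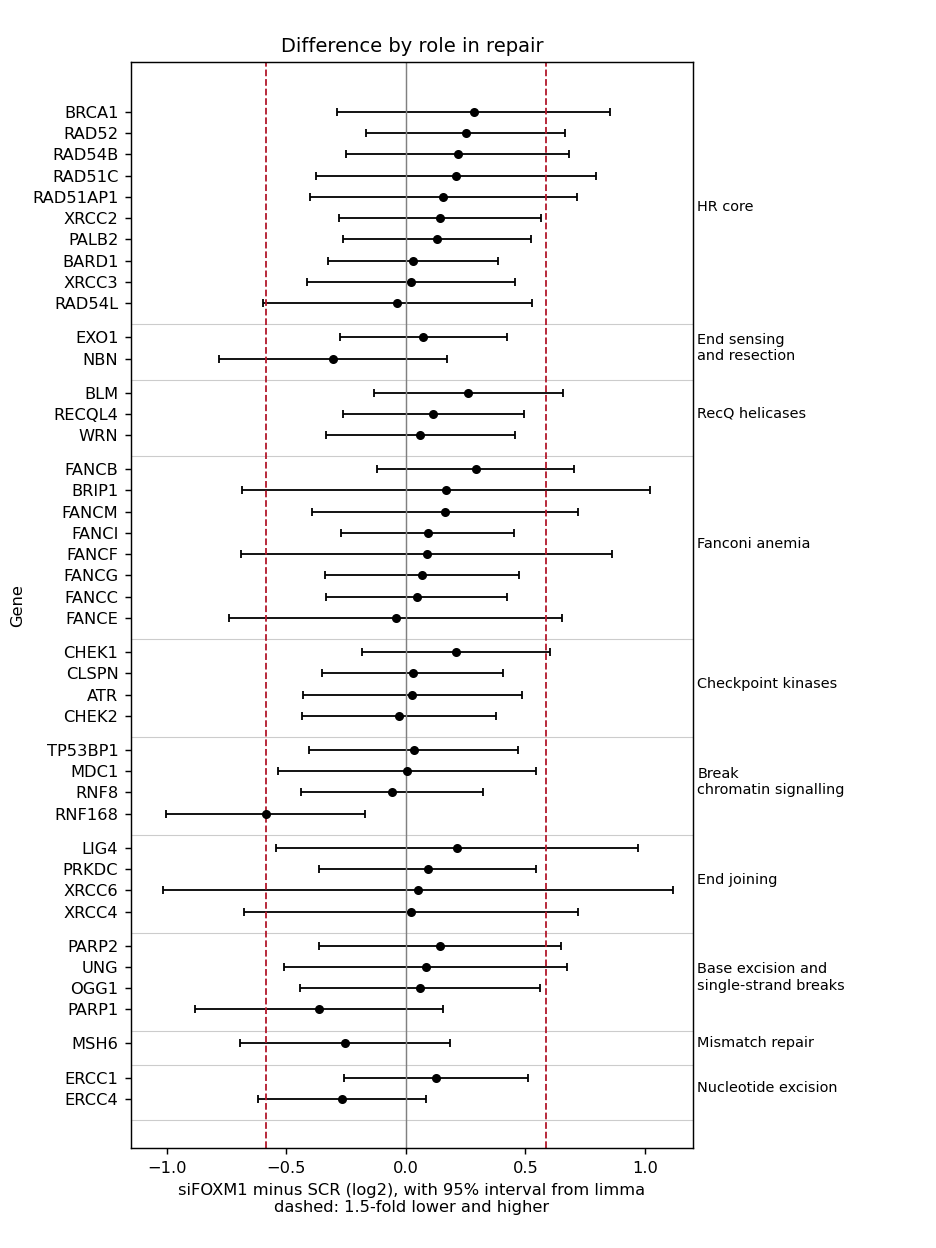
Difference in log2 expression, siFOXM1 minus SCR (x axis), of the 42 repair genes grouped by role (y axis); points are differences of the group means (n = 2 arrays each), bars the 95% intervals from limma, and dashed lines mark 1.5-fold. Only the bar of RNF168 leaves out 0, and its point lies on the left dashed line.

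At the ends of the break, the 2 measured genes differed in direction. NBN, the subunit that brings ATM to the break, had 8.79 and 8.47 in TE-1-siFOXM1 cells, against 9.06 and 8.82 in TE-1-SCR cells. The upper silenced value was just under the lower control value, and the difference was -0.31 (95% interval -0.78 to 0.17). EXO1, a nuclease of long-range resection and of mismatch repair, had 9.65 and 9.70 in TE-1-siFOXM1 cells and 9.56 and 9.63 in TE-1-SCR cells, a difference of 0.07 (-0.27 to 0.42). Its groups did not overlap, and its standard error of 0.13 was the smallest of the 42 genes.
Among the RecQ helicases, which unwind recombination and fork structures, BLM had 8.34 and 8.11 in TE-1-siFOXM1 cells and 7.93 and 8.0 in TE-1-SCR cells, a difference of 0.26 (95% interval -0.14 to 0.66). WRN had 7.98 and 7.76 in TE-1-siFOXM1 cells and 7.75 and 7.86 in TE-1-SCR cells, a difference of 0.06 (-0.34 to 0.46), and RECQL4 one of 0.11. The BLM groups did not overlap, whereas those of WRN and RECQL4 did.

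Of the 11 Fanconi anemia genes, 8 were measured, with a median difference of 0.09 and none 1.5-fold apart. FANCB, a subunit of the core ligase, had the largest positive difference of the 42 genes. Its log2 values were 7.29 and 7.04 in TE-1-siFOXM1 cells, against 6.81 and 6.93 in TE-1-SCR cells, a difference of 0.29 (95% interval -0.12 to 0.70) with no overlap of the groups. FANCE, another core subunit, was the lowest, with 9.30 and 8.81 in TE-1-siFOXM1 cells and 9.37 and 8.83 in TE-1-SCR cells, a difference of -0.04 (-0.74 to 0.65). The replicates of FANCE lay far wider apart than its groups.
BRIP1, the helicase that binds BRCA1, was the only one of the 3 genes described elsewhere as FOXM1 targets that had a value. It had 9.13 and 9.41 in TE-1-siFOXM1 cells and 8.65 and 9.55 in TE-1-SCR cells. The control arrays enclosed the silenced ones, so that the difference was 0.48 between the arrays numbered 1 and -0.15 between those numbered 2. The mean difference of 0.17 had a 95% interval of -0.68 to 1.02, which includes a 1.5-fold change either way, and the value was -0.28 without SCR replicate 1 and 0.62 without SCR replicate 2. FANCI, the partner of FANCD2 in the clamp that closes on DNA, had a difference of 0.09 (-0.27 to 0.45). FANCM, FANCF, FANCG and FANCC had differences of 0.16, 0.09, 0.07 and 0.05.

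Of the 4 measured checkpoint genes, CHEK1 was the one without overlap between the groups. CHEK1, the effector kinase of ATR, had 9.55 and 9.32 in TE-1-siFOXM1 cells, against 9.26 and 9.19 in TE-1-SCR cells, a difference of 0.21 (95% interval -0.18 to 0.60) that does not exclude a 1.5-fold increase. CHEK2, the effector of ATM, had 5.73 and 5.49 in TE-1-siFOXM1 cells and 5.70 and 5.58 in TE-1-SCR cells, a difference of -0.03 (-0.44 to 0.38), at the lowest mean level of the 42 genes (5.63). ATR and its adaptor CLSPN both had differences of 0.03, with intervals inside 1.5-fold on either side.

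Of the 4 measured genes of end joining, 3 had replicates that lay wide apart. These were XRCC6, XRCC4 and LIG4, whose means (5.78, 6.83 and 7.47) lay below the median of all values (7.58), whereas PRKDC had 10.8. XRCC6, which encodes Ku70, a subunit of the ring that caps broken ends, had 6.41 and 5.20 in TE-1-siFOXM1 cells and 5.83 and 5.68 in TE-1-SCR cells. The silenced arrays enclosed the control arrays, and the difference of 0.05 had the widest interval of the 42 genes (-1.02 to 1.12), with -0.55 without siFOXM1 replicate 1 and 0.66 without siFOXM1 replicate 2. LIG4, the ligase of this pathway, had 7.89 and 7.27 in TE-1-siFOXM1 cells and 7.63 and 7.10 in TE-1-SCR cells, a difference of 0.22 (-0.54 to 0.97). XRCC4, the partner of LIG4, had 7.19 and 6.49 in TE-1-siFOXM1 cells and 6.94 and 6.70 in TE-1-SCR cells, a difference of 0.02 (-0.68 to 0.72). PRKDC, the catalytic subunit of the DNA-dependent kinase, had a difference of 0.09 (-0.36 to 0.55), and the groups of all 4 genes overlapped.

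Of base excision and single-strand breaks, nucleotide excision and mismatch repair, 4, 2 and 1 genes were measured. In each of these roles 1 gene was on the low side. PARP1, the sensor that attaches ADP-ribose chains at DNA nicks, had 9.25 and 9.05 in TE-1-siFOXM1 cells, against 9.73 and 9.30 in TE-1-SCR cells, a difference of -0.36 (95% interval -0.88 to 0.15) that was -0.15 without SCR replicate 1 and -0.58 without SCR replicate 2. ERCC4, the XPF subunit of the nuclease that cuts the damaged strand in nucleotide excision, had 7.51 and 7.50 in TE-1-siFOXM1 cells, against 7.82 and 7.72 in TE-1-SCR cells, a difference of -0.27 (-0.62 to 0.08). MSH6, a subunit of a complex that detects mismatches, had 8.96 and 8.74 in TE-1-siFOXM1 cells, against 9.23 and 8.98 in TE-1-SCR cells, a difference of -0.25 (-0.70 to 0.19). For each of the 3 the groups did not overlap, where 13.8% of all genes were lower without overlap. For MSH6 the upper silenced value was just under the lower control value.
The partner of ERCC4 and the relative of PARP1 had positive differences, with groups that overlapped. ERCC1, the other subunit of the XPF nuclease, had 9.80 and 9.63 in TE-1-siFOXM1 cells and 9.66 and 9.52 in TE-1-SCR cells, a difference of 0.12 (95% interval -0.26 to 0.51). PARP2, a second ADP-ribose polymerase of nicks, had 9.71 and 9.42 in TE-1-siFOXM1 cells and 9.59 and 9.25 in TE-1-SCR cells, a difference of 0.14 (-0.37 to 0.65). Whether these genes differ in response from ERCC4 and PARP1 was not tested. UNG and OGG1, the glycosylases for uracil and oxidized guanine, had differences of 0.08 and 0.06.

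The width of the intervals, here from the fit without the replicate number, sets what that fit can say. Of the 42 intervals, 31 exclude a 1.5-fold decrease (73.8%, against 77.8% of all genes), 25 exclude a 1.5-fold increase (59.5%, against 76.2%) and 19 exclude both (45.2%, against 60.9%). Among the 33 genes at or above the median level, 17 exclude both (51.5%, against 58.9% of all genes at that level). The other 9 (CHEK2, XRCC6, FANCM, RNF8, FANCF, XRCC4, FANCB, RAD54B and LIG4) had means of 5.63 to 7.47, a range in which markers of other cell types such as VWF (6.47) also lay, and a narrow interval at such a level does not show that the transcript was measured. The median absolute difference between the groups was 0.10, whereas the median absolute difference between the replicate numbers was 0.23. For 29 of the 42 genes (69.0%, against 62.9% of all genes) the replicate numbers lay further apart than the groups.

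When each TE-1-siFOXM1 array was set against the TE-1-SCR array of the same number, 24 of the 42 genes were higher in both comparisons (57.1%, against 29.6% of all genes) and 7 lower in both (16.7%, against 27.3%). Of the 10 core recombination genes 9 were higher in both, RAD54L being the exception. After centring or quantile normalization of the arrays 8 were. FANCB had 0.48 and 0.11 for numbers 1 and 2, BRCA1 0.49 and 0.08, and RAD51C 0.40 and 0.02. These genes rest mainly on the arrays numbered 1. Over the 42 genes the median was 0.10 for number 1 and 0.04 for number 2, against -0.030 and 0.033 for all genes. For number 2 the median was thus close to that of all genes. Of the 9 core genes, BARD1 (0.009), RAD51C (0.020) and XRCC3 (0.026) were under the all-gene median for number 2. RNF168 had -0.68 and -0.50, PARP1 -0.48 and -0.25, and NBN -0.27 and -0.34, all below 0 in both.

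**Figure D3:**
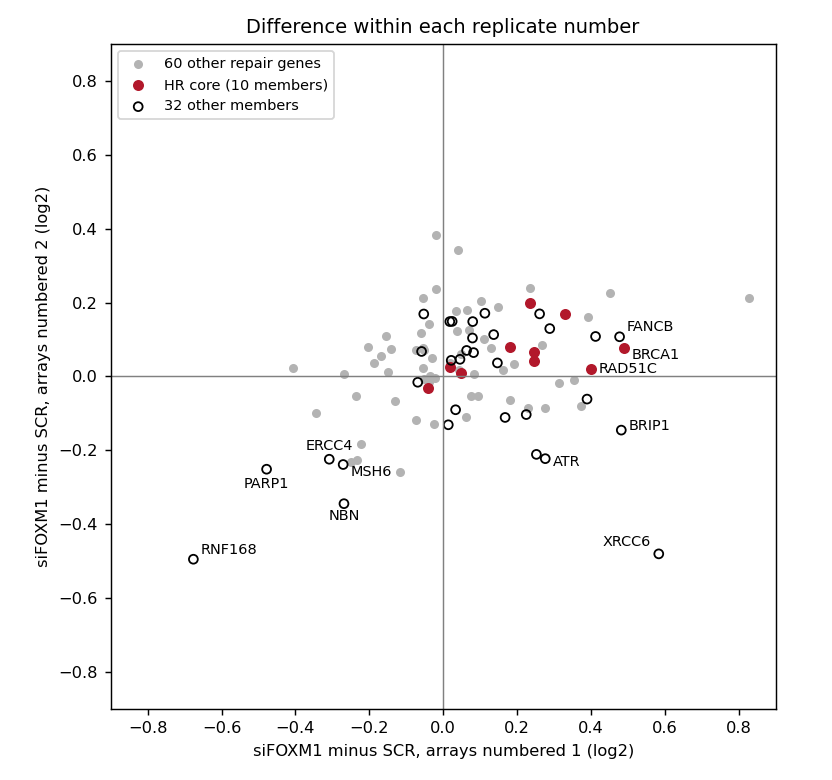
Difference in log2 expression between single arrays, siFOXM1 minus SCR, for the arrays numbered 1 (x axis) and those numbered 2 (y axis); red points are 10 core recombination genes, open circles the 32 other repair genes of the list and grey points 60 further repair genes. RNF168, PARP1, NBN, ERCC4 and MSH6 lie in the lower left, and XRCC6, BRIP1 and ATR differ in sign between the numbers.

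The replicate numbers also divided these genes, by more than the groups did in the median. Both arrays numbered 1 lay above both numbered 2 for 25 of the 42 genes (59.5%, against 43.0% of all genes), and the reverse held for BRIP1, PRKDC and BRCA1 (7.14%, against 10.4%). The median of replicate 1 minus replicate 2 was 0.23 within TE-1-siFOXM1 cells and 0.14 in TE-1-SCR cells. FANCF, a Fanconi core subunit, showed it in both groups, with 7.14 and 6.61 in TE-1-siFOXM1 cells and 7.11 and 6.46 in TE-1-SCR cells, and so did FANCE and LIG4. The count was 17 when the arrays were centred (40.5%, against 30.1% of all genes) and 16 after quantile normalization (38.1%, against 26.6%). With a filter at the median level it was 17 of 33 (51.5%), against 56.1% of all genes that passed, so the excess over other genes was not seen there. Genes of the G2 phase and mitosis moved with it, since 24 of 25 measured had both arrays numbered 1 above both numbered 2, and their part in the values of the repair genes was not tested. The distributions of values were also closer between arrays of the same number, whose sorted values differed by 0.02 on average, than between arrays of different numbers (0.08 to 0.11). The labels do not say what the numbers stand for.

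**Figure D4:**
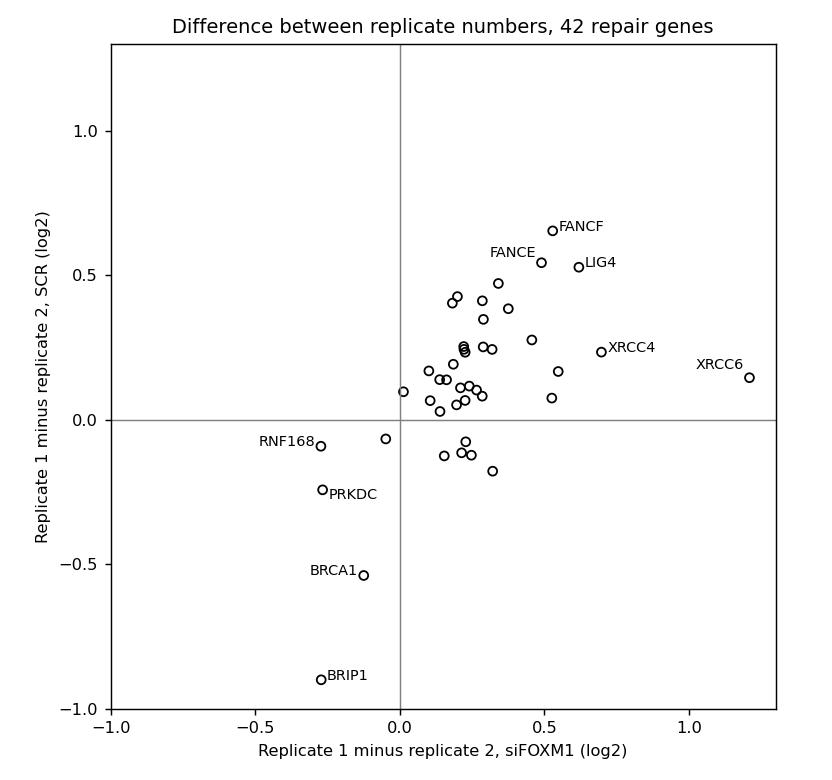
Replicate 1 minus replicate 2 in log2 expression within TE-1-siFOXM1 (x axis) and within TE-1-SCR (y axis), 1 circle for each of the 42 repair genes. Most circles lie to the upper right of 0, with FANCF, FANCE and LIG4 high in both groups and XRCC6 in TE-1-siFOXM1 only, and BRIP1, BRCA1 and PRKDC lie to the lower left.

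Among 81 further repair genes, 60 were measured and none was 1.5-fold apart or had an unadjusted p under 0.05 in limma, where 1 of the 42 did (adjusted p under 0.05, 0 of 60). Their median difference was 0.03, with 5 below and 5 above without overlap (8.33% each, against 13.8% and 13.5% of all genes). In both numbers 20 were higher (33.3%, against 29.6% of all genes). TDG, a glycosylase for mispaired thymine, had the largest difference, with 9.37 and 8.80 in TE-1-siFOXM1 cells, against 8.54 and 8.59 in TE-1-SCR cells (0.52, 95% interval -0.06 to 1.10, and 0.24 without siFOXM1 replicate 1). MGMT, which removes alkyl groups from guanine, followed with 8.09 and 7.97 in TE-1-siFOXM1 cells, against 7.63 and 7.75 in TE-1-SCR cells (0.34, -0.03 to 0.70). Both genes were higher on each silenced array than on either control array.
On the low side, PAXIP1, an adaptor of TP53BP1, had 8.82 and 8.70 in TE-1-siFOXM1 cells, against 9.07 and 8.93 in TE-1-SCR cells (-0.24, 95% interval -0.61 to 0.13). POLB, the polymerase of base excision repair, had 7.93 and 7.17 in TE-1-siFOXM1 cells and 8.16 and 7.40 in TE-1-SCR cells (-0.23, -1.18 to 0.73), with groups that overlapped. The members of the G2 and mitosis list and of the G1/S and replication list had median differences of 0.01 and 0.04 between the groups (25 and 22 measured).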

How the data were processed

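The arrays were processed by the authors, who deposited log2 values after robust multi-array average (RMA), 1 per probe set and array, in 22011 rows. Affymetrix Expression Console, RMA and hg18 are named, without versions, in the notes of the submitters on processing, and the sources used here do not give which arrays were normalized together. Probe sets were named from the platform annotation, and 14404 of the 14432 with 1 symbol matched current genes. The difference was that of the group means (siFOXM1 minus SCR, 2 arrays each). All probe sets were tested with limma 3.58.1 in R 4.3.3 (4.87 degrees of freedom), without the replicate number, with Benjamini-Hochberg adjustment over all of them, and the calculation was tested on simulated data. The number of arrays limits the precision.
The 52 genes, their roles and the other lists were chosen with earlier results of these data known. Values of every array are given for FOXM1, genes described elsewhere as its targets, genes 1.5-fold apart, the 8 largest decreases and increases, and the lowest and highest of each role. For the other repair genes, the rule names any that are 1.5-fold apart and the 2 largest decreases and increases. XRCC6 and FANCF fall outside this rule and were given in full after their values were seen. Alternatives were the replicate block, centring, quantile normalization, a filter at the median level, an intensity trend, the mean of probe sets, linear means, a 2-fold criterion and leaving out each array. Where 1 array of a group remained, the spread of the other group stood in for its own.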

Additional observations from a re-analysis of the deposited data

How the results depend on the processing

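The filter on low values kept 33 of the 42 genes, and 0 of the 42 genes passed an adjusted p of 0.05 in limma in any fit. No gene was lower by a 2-fold criterion or by 1.5-fold from linear means (0 in both), so RNF168 lost its place there. Both silenced arrays were above both controls for 10 genes after centring (23.8%, against 14.1% of all genes) and 13 after quantile normalization (31.0%, against 15.3%). Before, there were 6 such genes (14.3%, against 13.5%). After quantile normalization 16 genes had both arrays numbered 1 on top (38.1%, against 26.6%), instead of 25 (59.5%, against 43.0%). This last count was chosen after seeing the data, as were the counts of genes higher or lower in both numbers.
Leaving out each array gave 0 to 1 genes at least 1.5-fold lower (0 without siFOXM1 replicate 1 or SCR replicate 2) and 0 to 1 higher (XRCC6 without siFOXM1 replicate 2, BRIP1 without SCR replicate 2). It gave 5 to 13 genes below both or the lone control and 8 to 30 above, and a median difference of -0.056 to 0.17. Fewer arrays overlap less, in each of these fits alike, but the counts varied with the array left out. There were 13 below and 8 above without siFOXM1 replicate 1, against 5 below and 30 above without siFOXM1 replicate 2. These counts are given without the share of all genes. Among the other repair genes, 0 to 1 were lower (POLB without siFOXM1 replicate 1 or SCR replicate 2), 0 to 1 higher (TDG without siFOXM1 replicate 2), with a median of -0.050 to 0.14. The difference of FOXM1 ranged from -2.38 to -1.58.
With the replicate number as a block, RNF168, PARP1 and NBN had unadjusted p values of 0.00809, 0.0397 and 0.0435 in limma (adjusted p = 0.665, 0.697 and 0.697), 3 genes (7.14%, against 5.09% of all genes) instead of 1 (2.38%, against 1.83%). The block left 1 gene at least 1.5-fold lower and 0 higher. Deviations from the group means correlated at 0.34 between arrays of the same number across probe sets, but the labels do not say that the numbers pair the samples.
In the fit without the block, a 1.5-fold change could be excluded in both directions for 19 of the 42 genes only. This count depends on the fit, as the block changed the intervals. That of FANCE was -0.33 to 0.25 with the block, against -0.74 to 0.65 without it. That of ATR was slightly wider with the block (-0.45 to 0.51, against -0.43 to 0.48).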
